A study of Mus musculus with 8 samples.

Results

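Macrophages that load lipid take on a shared set of surface and secreted proteins, and 6 genes of that set were followed here in alveolar macrophages of tumor-bearing lungs. They are Trem2, Gpnmb, Spp1, Msr1, Cd36 and Olr1, taken by symbol from the deposited expression table, where all 6 were found among 12701 genes. RNA was sequenced from macrophages sorted from lungs of C57BL/6 mice that were naive, with 3 libraries, or that had received KP cells, with 2 libraries labelled d15 and 3 labelled d35. KP is a mouse lung tumor line. It was injected into the tail vein, so tumors were seeded from the blood, with KP or KP-GFP cells, and the labels do not say which of these lines a mouse received. The d15 and d35 labels give days 15 and 35 after transfer, whereas the growth protocol gives a harvest window of 15 to 30 days, so the later time is uncertain. Each library came from 20000 sorted cells, and 1 ng of RNA was amplified. The labels give the naive mice as wild type and name no other allele or agent, and the sources used here do not state age, sex, sorting gate or pooling of animals. Whether libraries are separate animals is likewise not stated. Each p-value therefore reflects variation among these libraries, possibly technical.

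Alveolar macrophages live in the airspaces and clear surfactant lipid, inhaled particles and dying cells. Lipid-associated macrophages are TREM2-expressing cells that gather where lipid or dead-cell debris accumulates, in fat, atherosclerotic plaques and tumors. TREM2 is a surface receptor for lipids and lipoproteins that signals through the adaptor DAP12, the product of Tyrobp. Gpnmb encodes a lysosomal and cell-surface glycoprotein, and Spp1 encodes osteopontin, a secreted protein that binds integrins and CD44. Msr1, Cd36 and Olr1 encode scavenger receptors that bind modified lipoproteins. Msr1 is the class A receptor SR-A, Cd36 is a class B receptor that also takes up long-chain fatty acids, and Olr1 is the lectin-like receptor LOX-1.

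Levels are given as scaled CPM, the authors' scaled signal per gene, which is close to a CPM value. Libraries held 27465745 to 39572173 reads. The fewest reads of a member in 1 library were 668 for Msr1 and 935 for Trem2. The most abundant gene of a list means the highest in scaled CPM, which is not corrected for length. Defining markers of alveolar macrophages were high in every group, Chil3 at 22079.5 ± 3905, 28404 ± 3403 and 33501 ± 7594 scaled CPM in naive, d15 and d35 libraries (SD, n = 3, 2 and 3) and Siglecf at 719 ± 36.6, 574 ± 22.6 and 591 ± 47.1. Siglecf fell at d35 over naive (limma adjusted p = 0.033), a call that ended in 10 of 20 alternatives. All 15 markers of the alveolar macrophage list were measured, with summed levels of 68326 to 73483 scaled CPM in naive, 87885 to 87979 in d15 and 93794 to 115885 in d35 libraries. Most of each sum was Lyz2 and Chil3, neither of which was called at d35 over naive (limma adjusted p = 0.0646 and 0.0799). At d35 over naive 4 of the 15 were called higher (Car4, Ear2, Cd68 and Fabp5), Siglecf alone was lower and 10 did not pass. Over all genes tested 9.86% were called higher and 6.32% lower. Itgax was at a log2 fold change of 0.10 at d35 (adjusted p = 0.422) and Lyz2, the most abundant, at 0.55 (adjusted p = 0.0646). The expression is an average over sorted cells, so more cells with a transcript and more transcript per cell cannot be told apart.

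Of the 6 genes, 4 rose at d35 over naive macrophages, Spp1, Msr1, Trem2 and Gpnmb, and none fell. The other 2, the scavenger receptor genes Cd36 and Olr1, were abundant in naive cells and did not pass the test. Across all 11273 genes tested, 16.2% were called in this comparison, 9.86% higher and 6.32% lower. All d35 libraries lay above all naive libraries for the same 4, as for 20.7% of tested genes. At d15 none of the 6 passed the test over naive, at a background of 4.37%. At an unadjusted limma p under 0.05, Olr1 (0.00951) and Gpnmb (0.0129) passed there, a cut whose share over all genes was not counted. DESeq2 called the same 2 after adjustment, but it called 1451 genes at d15 in all, against 493 with limma. Both d15 libraries lay above every naive one for Trem2 and Msr1, as for 25.9% of genes, and below for Gpnmb and Olr1, as for 22.3%. The same 4 genes were called higher at d35 than at d15, where 7.39% of genes were called, 4.59% higher and 2.8% lower. All d35 libraries lay above both d15 libraries for these 4, as was so for 19% of genes, while 19.5% of genes and none of the 6 lay wholly below. Calls were made at a Benjamini-Hochberg adjusted p of 0.05 over all genes tested with limma, on the log2(scaled CPM + 1) scale. The d15 and d35 comparisons share the naive libraries.

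**Figure D1:**
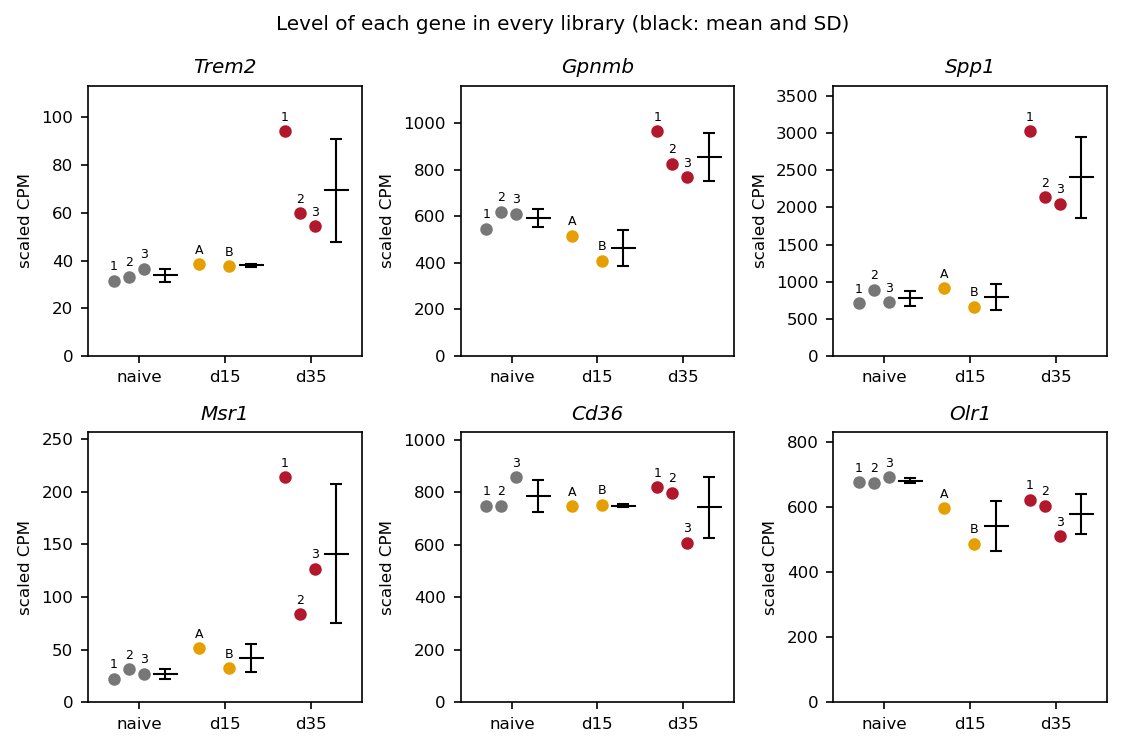
Level of each of the 6 genes in scaled CPM (y axis, from 0) in every library, grouped by naive, d15 and d35 (x axis); points are libraries with their replicate number or letter, and the black bar and whisker are the mean and SD. The 3 d35 libraries lie above every naive library for Trem2, Gpnmb, Spp1 and Msr1, while Cd36 overlaps between groups and Olr1 lies lower at d15 and d35.

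Spp1 was the most abundant of the 4 genes that rose. Its level was 713, 893 and 723 scaled CPM in naive replicates 1, 2 and 3, 915 and 665 in d15 replicates A and B, and 3031, 2140.3 and 2048 in d35 replicates 1, 2 and 3. The d15 libraries lay on either side of the naive values, whereas all d35 libraries lay above them. At d35 Spp1 was 3.07-fold the naive level (95% confidence interval 2.39 to 3.94, limma adjusted p = 0.000287). It was 3.03-fold the d15 level (interval 2.29 to 4.01, adjusted p = 0.00073). At d15 the log2 fold change over naive was 0.01, with an interval of -0.39 to 0.42 (adjusted p = 0.971). Ranked per kilobase of exon among 12624 genes, Spp1 stood at places 14, 16 and 18 in the d35 libraries, against places 54, 39 and 58 in the naive libraries.

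Msr1 had the largest fold change of the 6 genes at d35 and the widest spread. It measured 22.5, 31.8 and 27.2 scaled CPM in naive libraries, 51.2 and 32.4 at d15, and 214, 83.5 and 127 at d35. The lowest d35 library was above every naive and d15 library, and d35 replicate 1 stood well above the other two. The d35 level was 4.75-fold the naive level (interval 3.07 to 7.34, adjusted p = 0.0011) and 3.17-fold the d15 level (interval 1.95 to 5.16, adjusted p = 0.0116). Both d15 libraries were above the naive ones, replicate B only slightly, and the difference did not pass the test (log2 fold change 0.58, interval -0.12 to 1.29, adjusted p = 0.271). The coefficient of variation was 46.8% at d35 and 17.1% in naive libraries.

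Trem2, the lipid-sensing receptor, was a gene of moderate level. Values were 31.5, 33.3 and 36.5 scaled CPM in naive libraries, 38.5 and 37.6 at d15, and 94.3, 59.8 and 54.5 at d35. All d35 libraries exceeded all others, with replicate 1 again the highest. The d35 level was 1.98-fold the naive level (interval 1.53 to 2.55, adjusted p = 0.00541). It was 1.75-fold the d15 level (interval 1.32 to 2.33, adjusted p = 0.0273). Trem2's call over d15 ended without d15 replicate A (adjusted p = 0.128), without d15 replicate B (0.171), with only the d15 and d35 libraries fitted (0.0785) and without an intensity trend (0.0686). At d15 both libraries were slightly above all naive ones, by 0.17 on the log2 scale (interval -0.24 to 0.58, adjusted p = 0.604).

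Gpnmb moved least of the 4 and was already abundant in naive macrophages. It was at 546, 620 and 610.0 scaled CPM in naive libraries, 516 and 409 at d15, and 966, 826 and 766 at d35. The d15 libraries were below every naive library and the d35 libraries above every one. At d35 Gpnmb was 1.43-fold the naive level (interval 1.21 to 1.70, adjusted p = 0.013) and 1.85-fold the d15 level (interval 1.53 to 2.22, adjusted p = 0.00216). The d15 difference from naive was -0.36 on the log2 scale (interval -0.63 to -0.09) and did not pass limma's test (adjusted p = 0.0944). In the authors' deposited table the d15 log2 fold change of Gpnmb was -0.38 with an adjusted p of 0.0483, and DESeq2 gave an adjusted p of 0.0313.

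Cd36 did not pass the test in any of the 3 comparisons. It was at 749, 749 and 856 scaled CPM in naive libraries, 746 and 752 at d15, and 820.0, 798 and 608 at d35. The groups overlapped, and d35 replicate 3 was the lowest of the 8 libraries. The log2 fold change was -0.09 at d35 over naive (interval -0.33 to 0.15, adjusted p = 0.609) and -0.06 at d15 (interval -0.34 to 0.21, adjusted p = 0.788). Without d35 replicate 3 the d35 value was 0.05 (adjusted p = 0.762).

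Olr1 was the only one of the 6 whose libraries of both tumor groups all lay below the naive ones. It was at 677, 675 and 690.5 scaled CPM in naive libraries, 596 and 487 at d15, and 622, 603 and 509.9 at d35. No d15 or d35 library reached a naive one. Of all tested genes, 22.3% lay wholly below naive at d15 and 15.9% at d35. The differences did not pass limma's test, at -0.34 on the log2 scale at d15 (interval -0.57 to -0.10, adjusted p = 0.0837) and -0.24 at d35 (interval -0.45 to -0.03, adjusted p = 0.111). The d15 value passed in the authors' deposited table (log2 fold change -0.35, adjusted p = 0.0275), with DESeq2 (adjusted p = 0.0222) and without d35 replicate 3 (adjusted p = 0.0448). Between d35 and d15 the log2 difference was 0.10 (interval -0.14 to 0.33, adjusted p = 0.667).

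**Figure D2:**
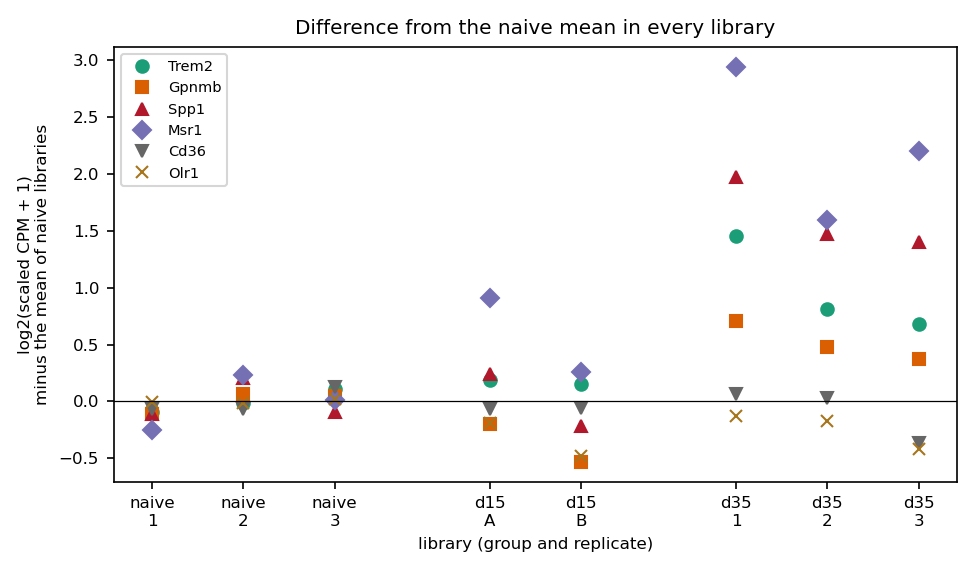
Difference of each gene from its mean over naive libraries, on the log2(scaled CPM + 1) scale (y axis), in every library (x axis, group and replicate). In d35 replicates 1, 2 and 3 Msr1 lies at 2.94, 1.60 and 2.20 and Spp1 at 1.97, 1.47 and 1.41, while Cd36 and Olr1 lie between -0.42 and 0.07.

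The 4 genes that rose did not order the d35 libraries alike. Replicate 1 was the highest for Spp1, Trem2, Gpnmb and Msr1, and replicate 3 was the lowest for Spp1, Trem2 and Gpnmb. For Msr1 the lowest was replicate 2. Cd36 and Olr1 were also lowest in replicate 3. Without d35 replicate 1 the d35 changes over naive were 1.44 for Spp1, 1.90 for Msr1, 0.74 for Trem2 and 0.43 for Gpnmb on the log2 scale. All were called, with the highest adjusted p at 0.0371 for Gpnmb.

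**Figure D3:**
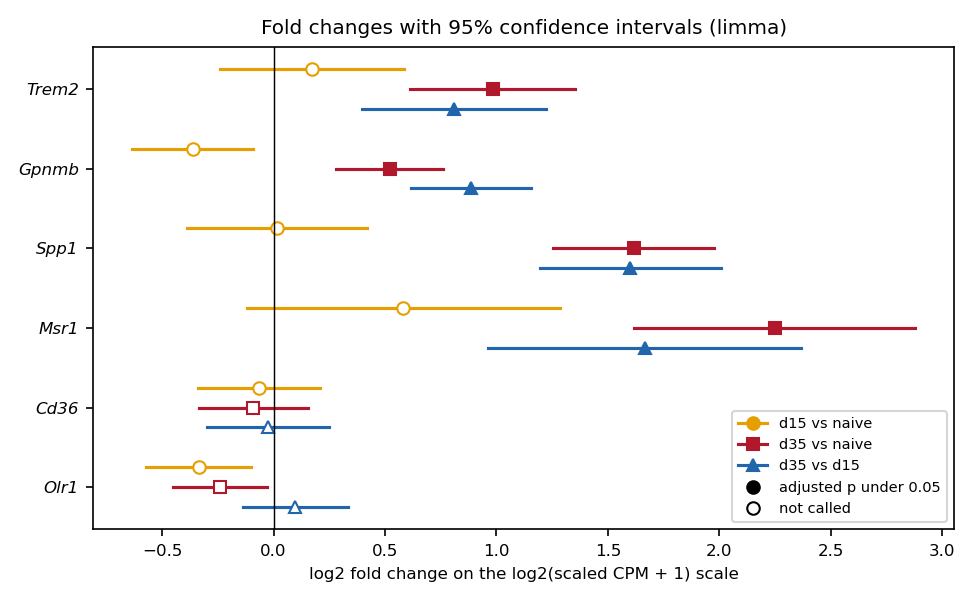
Log2 fold change on the log2(scaled CPM + 1) scale (x axis) of each gene (y axis) for d15 vs naive, d35 vs naive and d35 vs d15, with 95% confidence intervals; filled symbols passed an adjusted p of 0.05 in limma. Msr1, Spp1, Trem2 and Gpnmb are filled in both d35 comparisons, and no d15 vs naive symbol is filled.

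Per kilobase of exon the genes differed in level by over an order of magnitude, and the exon lengths used, from GENCODE M21, ran from 1648 bases for Spp1 to 6514 for Gpnmb. In naive libraries Spp1 led at 471 ± 61.3 scaled CPM per kb, followed by Cd36 at 219 ± 17.2, Olr1 at 191 ± 2.4, Gpnmb at 90.9 ± 6.1, Trem2 at 6.82 ± 0.52 and Msr1 at 4.28 ± 0.73 (SD, n = 3). None of these neighbours overlapped in naive libraries. At d35 the order was Spp1 at 1460.3 ± 329, Cd36 at 207 ± 32.4, Olr1 at 162 ± 16.8, Gpnmb at 131 ± 15.7, Msr1 at 22.3 ± 10.4 and Trem2 at 14.1 ± 4.4 (SD, n = 3). There the ranges of Cd36 and Olr1, of Olr1 and Gpnmb, and of Msr1 and Trem2 overlapped. At d15 Msr1, at 5.10 and 8.07 per kb, spanned the Trem2 values of 7.60 and 7.79. The authors' own gene models were not used here, so levels per kb are approximate. Together the 6 genes took 0.286% to 0.315% of reads in naive, 0.239% to 0.284% in d15 and 0.398% to 0.538% in d35 libraries. Spp1 alone made up 24.6% to 29.7%, 27.9% to 32.0% and 47.5% to 52.7% of those reads.

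In the mm10 genome the genes lie on 4 chromosomes, and all are annotated as protein coding. Spp1 lies on chromosome 5 at 104435118 to 104441050 on the plus strand, with 6 exons in its longest transcript, and Cd36 on chromosome 5 at 17781690 to 17888801 on the minus strand, with 15. Gpnmb lies on chromosome 6 at 49036546 to 49070929 on the plus strand, with 11 exons, and Olr1 on chromosome 6 at 129485244 to 129507165 on the minus strand, with 8. Trem2 lies on chromosome 17 at 48346401 to 48354147 on the plus strand, with 4 exons. Msr1 lies on chromosome 8 at 39581685 to 39642673 on the minus strand, with 9.

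The promoter sequences of genes that rose together and of those that did not are set side by side for comparison. The RefSeq promoter table for GRCm38.p6, the assembly that mm10 names, held entries for 5 of the 6 genes, Msr1 being the other. The 250 bases before the start site were searched on both strands for 4 motifs. These were TGANTCA, used here for AP-1 with any middle base, and CACGTG, the E-box used by MITF and TFEB. The others were GAGGAAG of PU.1 and AGGTCA, the hexamer site of nuclear receptors such as PPAR gamma. Matches are in capitals, each sequence runs 5′ to 3′ on the strand of its gene, and no match overlaps another. Trem2 and Spp1 rose at d35, and Olr1 and Cd36 did not pass. Positions are counted back from the start site. The Cd36 entry belongs to a start site inside the annotated gene.
Trem2, chr17:48346151-48346400, plus strand: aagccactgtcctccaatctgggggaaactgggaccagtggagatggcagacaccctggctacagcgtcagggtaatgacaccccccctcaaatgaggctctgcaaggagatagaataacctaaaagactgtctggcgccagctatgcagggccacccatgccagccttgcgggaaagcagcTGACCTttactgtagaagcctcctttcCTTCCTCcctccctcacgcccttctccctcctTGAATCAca
Spp1, chr5:104434861-104435110, plus strand: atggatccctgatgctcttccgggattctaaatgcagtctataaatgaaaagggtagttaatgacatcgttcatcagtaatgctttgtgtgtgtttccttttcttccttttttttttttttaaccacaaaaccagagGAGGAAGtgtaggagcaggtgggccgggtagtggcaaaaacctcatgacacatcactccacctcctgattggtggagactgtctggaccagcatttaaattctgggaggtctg
Olr1, chr6:129507166-129507415, minus strand: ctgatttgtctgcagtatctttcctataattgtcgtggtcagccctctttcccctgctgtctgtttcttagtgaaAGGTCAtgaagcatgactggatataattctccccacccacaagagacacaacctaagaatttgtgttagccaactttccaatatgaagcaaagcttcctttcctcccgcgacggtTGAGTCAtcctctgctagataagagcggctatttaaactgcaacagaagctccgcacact
Cd36, chr5:17835897-17836146, minus strand: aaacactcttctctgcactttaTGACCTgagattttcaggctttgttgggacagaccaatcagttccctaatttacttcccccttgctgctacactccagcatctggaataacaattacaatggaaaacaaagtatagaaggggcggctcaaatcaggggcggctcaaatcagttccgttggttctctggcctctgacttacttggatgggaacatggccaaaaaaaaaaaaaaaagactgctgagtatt

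The Trem2 window held 3 matches, a hexamer at bases 68 to 63 before the start, a PU.1 match at 41 to 35 and an AP-1 match at 9 to 3. The window of Spp1 had 1 PU.1 match, at bases 113 to 107. Its other entry in the table had none. In Olr1 a hexamer lay at bases 175 to 170 and an AP-1 match at 60 to 54, and in Cd36 a hexamer lay at 228 to 223. The Gpnmb window had none of the 4 motifs, and CACGTG was in none of the windows searched for these genes. Over all 32851 windows in the table, 6.75% held TGANTCA, 6.02% CACGTG, 10.6% GAGGAAG and 14.0% AGGTCA. AP-1 matches thus occurred both in a gene that rose and in one that did not, as did hexamers. A match describes letters and not a bound site.

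The wider gene sets around these 6 genes were followed in 5 lists. At d35 over naive, 9.86% of all genes tested were called higher and 6.32% lower. The lipid-associated macrophage list, genes reported with Trem2 in such cells in other tissues, showed the most calls at d35, with 12 of 24 higher, none lower and 12 not passing. Its median log2 fold change was 0.35, against -0.00223 over all genes tested. Cd63, a tetraspanin of late endosomes, was at 414 ± 97.0 scaled CPM at d35 and 135 ± 20.3 in naive libraries (SD, n = 3 each), 1.59 on the log2 scale (adjusted p = 0.000215). Cd68, a lysosomal glycoprotein, was at 1400.3 ± 47.6 against 964 ± 101 (adjusted p = 0.00383). The lysosomal cathepsin genes Ctsb, Ctsd, Ctsl and Ctsz rose by 0.60, 0.51, 0.68 and 0.55 on the log2 scale, the call of Ctsd ending in 5 of 20 alternatives. The lysosomal acid lipase gene Lipa, the fatty acid binding gene Fabp5, the galectin genes Lgals1 and Lgals3 and the cystatin gene Cstb also rose, by 0.33 for Lipa to 0.79 for Cstb. The call of Lipa held in 13, that of Lgals1 in 10 and that of Lgals3 in 18 of 20 alternatives. A correction for exon length ended the calls of Ctsd, Ctsz, Lgals3 and Lgals1, with Lgals1 at 0.04, and brought Cstb to 0.40 and Cd68 to 0.29, both still called.

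Apoe, an apolipoprotein that is a ligand of TREM2, was at 373, 81.7 and 131 scaled CPM in d35 libraries, against 46.1, 41.5 and 42.0 in naive libraries, a log2 fold change of 1.86 (adjusted p = 0.0146). Every d35 library was above the naive ones, and the call ended without naive replicate 2. Cd9, the most abundant gene of the list and also a tetraspanin, was at 5718 ± 303 at d35 and 5325 ± 499 in naive libraries (adjusted p = 0.525). The lipid-droplet coat gene Plin2 was at a log2 fold change of 0.04 (adjusted p = 0.819) and the lipoprotein lipase gene Lpl at -0.00078 (adjusted p = 0.997). The count of 12 fell to 8 at the lowest when single libraries were left out, without naive replicate 1 or naive replicate 2, and was 8 after the length correction. At d15 this list had Lgals1 and Atp6v0d2 higher and Lpl lower, where 2.37% of all genes tested were called higher and 2% lower. Single left-out libraries gave 0 to 3 calls, with 0 without naive replicate 2 and 1 without naive replicate 3. Fewer calls also held without d15 replicate A or d15 replicate B. Over d15 at d35, 7 of the list were called higher and 1 lower, against 4.59% and 2.8% of all genes tested. Calls were 10 at the most over left-out libraries, and most were lost when either d15 library was left out.

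Other scavenger receptors mostly did not pass. The median of the 16 tested was 0.01 at d35 over naive. Of them 4 were called higher, against 9.86% of all genes tested, 1 lower, against 6.32%, and 11 did not pass. These 5 calls became 3 without d35 replicate 1 or d35 replicate 3. Cxcl16, which encodes a transmembrane chemokine and receptor for oxidized lipoprotein also called SR-PSOX, was at 95.8, 33.1 and 63.8 scaled CPM at d35 against 4.79, 8.91 and 7.86 in naive libraries. Its log2 fold change was 2.91 (adjusted p = 0.000496). The collectin receptor gene Colec12 was at 170.2 ± 62.6 against 71.5 ± 19.9 (adjusted p = 0.0138). Cd68, which is on both lists, was the third. Scara3 had 71, 27 and 60 reads at d35 and no read in any naive or d15 library, where 0 reads allow up to 3 per library. Lrp1, a large lipoprotein receptor, fell by 0.29 on the log2 scale (adjusted p = 0.0444), and 12 of its 20 alternatives ended that call, among them the length correction, which brought it to -0.04. Mrc1, the mannose receptor and the most abundant of the list, was at 1212 ± 154 at d35 and 1372 ± 24.3 in naive libraries (adjusted p = 0.198). Marco, another class A receptor, was at 388 ± 258 against 397 ± 21.3 (adjusted p = 0.675), with a log2 fold change of 0.27 without d35 replicate 3.

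Signalling partners of TREM2 were mostly not called. Of 16 genes, with a median of -0.05, 1 was called higher at d35, against 9.86% of all genes tested. Another 2 were lower, against 6.32%, and 13 did not pass. These 3 calls became 1 without naive replicate 1 or naive replicate 2. Tyrobp, which encodes DAP12, was at 653 ± 96.5 scaled CPM at d35 and 481 ± 24.9 in naive libraries, 0.43 on the log2 scale (adjusted p = 0.0194). That call ended without naive replicate 1, without naive replicate 2, without an intensity trend and after a correction for exon length, which brought the value to 0.05. Pik3r1, a regulatory subunit of PI3 kinase, was at 50.5 ± 0.486 against 70.6 ± 5.91 (adjusted p = 0.00962). Card9, a signalling adaptor, fell by 0.35 (adjusted p = 0.0308), a call that ended when any naive or d35 library was left out. At d15 over naive 3 of the 16 were lower and none higher, a count that became 0 without naive replicate 2, naive replicate 3, d15 replicate A or d15 replicate B, 1 without naive replicate 1 and 6 without d35 replicate 3.

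Among 9 tested receptors for osteopontin and Gpnmb, 3 were called higher at d35, none lower and 6 did not pass, with a median of -0.02. The share called higher among all genes tested was 9.86%. Cd44, the most abundant, was at 1433 ± 131 scaled CPM at d35 and 1694 ± 25.3 in naive libraries (adjusted p = 0.0724). Sdc1, a heparan sulfate proteoglycan, was at 30.6, 13.1 and 22.2 at d35, against 0.286, 0.482 and 0.760 in naive libraries, a log2 fold change of 3.86 (adjusted p = 4.3e-05). Sdc4, its paralog, was at 2.81 ± 0.910 against 0.534 ± 0.297 (adjusted p = 0.0109). Sdc1 and Sdc4 did not enter the test through their naive levels, which favoured a call of higher. The count of 3 is therefore not independent of that filter. The integrin gene Itga5 rose by 0.38 (adjusted p = 0.0417), a call that held in 10 of 20 alternatives.

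**Figure D4:**
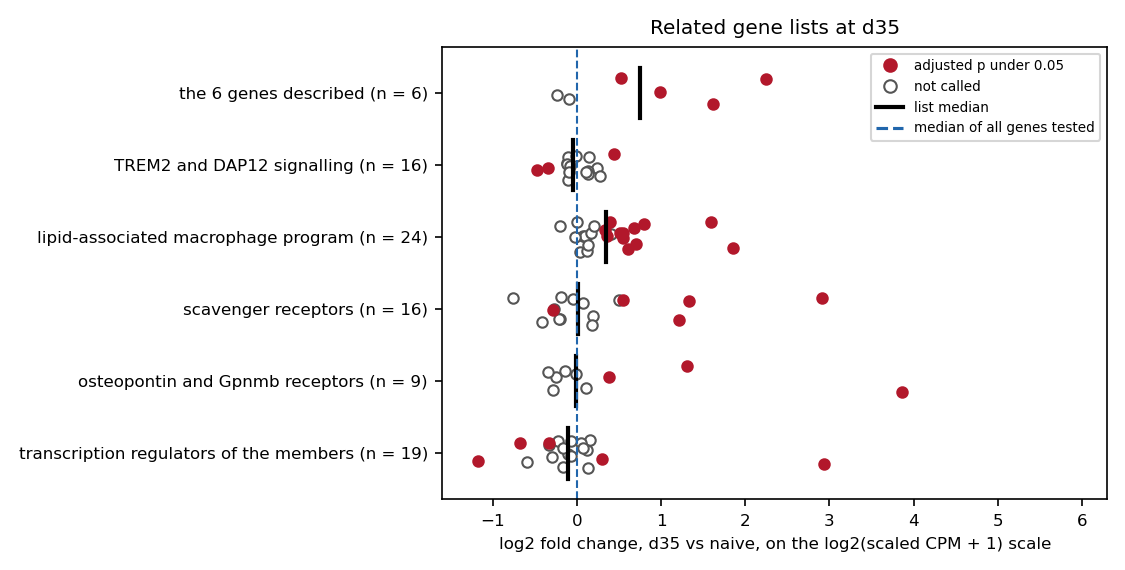
Log2 fold change at d35 over naive on the log2(scaled CPM + 1) scale (x axis) for the 6 genes and the tested genes of 5 related lists (y axis); filled points passed an adjusted p of 0.05, the black line is a list's median and the dashed line the median of all genes tested. The lipid-associated macrophage list has 12 filled points, all to the right of 0, while the other lists have medians from -0.10 to 0.01.

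Likeness to each gene was measured as the root mean square difference between profiles over the 8 libraries, each on the log2(scaled CPM + 1) scale and centred on its naive mean. For Spp1 the 3 nearest genes were Vsig8 at 0.14, Stac2 at 0.18 and Cd63 at 0.18, and Cd63 alone of these exceeded 100 scaled CPM. For Msr1 they included Wfdc17 at 0.19 and Ass1 at 0.28. For Trem2 they were Timp1 at 0.10, Tlr1 at 0.15 and Ksr2 at 0.16, which averaged 1.51, 1.54 and 2.48 scaled CPM at d35, where the added 1 compresses differences. For Gpnmb they were Tcp11l1, Slc16a3 and Aldh1b1 at 0.116, 0.121 and 0.125. The nearest of Cd36 were Fnip1, Pde3b and Yipf6 at 0.04 to 0.06, and those of Olr1 were Map3k20, Slc4a7 and Ube4b at 0.06 to 0.07. Among the 6 genes the closest pair was Cd36 and Olr1 at 0.19, and the next were Gpnmb and Trem2 at 0.42, Cd36 and Gpnmb at 0.42 and Spp1 and Trem2 at 0.43. Msr1 and Spp1 were 0.53 apart. The difference is small for any 2 genes that change little, so ranks among all genes tested order these pairs otherwise. Olr1 ranked 2866 from Cd36 and Cd36 1590 from Olr1. Trem2 ranked 4516 from Gpnmb and Gpnmb 547 from Trem2. Spp1 ranked 61 from Msr1 and Msr1 241 from Spp1, while Trem2 ranked 114 from Spp1 and Spp1 611 from Trem2.

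Markers of other cells moved beside the d35 changes in some lists. The summed level of 18 measured monocyte and interstitial macrophage markers was 1675, 1257 and 1645 scaled CPM in d35 replicates 1, 2 and 3, against 884 to 1125 in naive and 934 to 989 in d15 libraries. At d35 over naive 10 of these 18 were called higher and 1 lower. Among all genes tested 9.86% were called higher and 6.32% lower, shares that apply beside each marker list here at d35. C1qb was at 156, 43.8 and 98.5 at d35, in the library order of Msr1, against 0.454 to 1.77 in naive libraries. The monocyte marker Ccr2 was at 67.1, 23.9 and 35.7 at d35 against 15.5 to 16.5 in naive libraries (limma adjusted p = 0.017). That call ended without naive replicate 2 or naive replicate 3. Another monocyte marker, Ly6c2, was at 0.320 to 1.16 at d35 and 0.756 to 1.35 in naive libraries. Cd14, the most abundant of the list, was at 596 ± 132 and 531 ± 129 (adjusted p = 0.55). Of 11 measured epithelial and KP tumor markers, Krt7, Krt8 and Krt18 rose, to 7.26 to 18.8 scaled CPM at d35 against 0.118 to 0.679 in naive libraries, while Epcam fell. Krt8 and Krt18 reached 1 scaled CPM in d35 libraries alone, as did the neutrophil marker Ltf, so the filter favoured their calls. The sum of that list was 1220.0 to 1344 at d35 and 1445 to 1447 in naive libraries, most of it Krt19, at 897 ± 129.6 against 1049 ± 35.8 (adjusted p = 0.13). The T and NK cell sum was 35.2, 9.14 and 17.8 at d35 against 6.34 to 6.67. Most of the d35 sum was Il7r, at 30.1, 5.89 and 10.9 against 0.725 to 1.66 in naive libraries. Il7r was the 1 gene called higher of 3 tested on that list, and 2 were not called. Endothelial markers, led by Calcrl, summed to 171 to 215 at d35 against 270 to 334, with 7 of 10 lower. B cell markers, led by Ms4a1, summed to 3.78 to 6.93 at d35 against 10.4 to 15.5, with 3 of 4 lower. Fibroblast markers, led by Col3a1, summed to 7.51 to 15.2 at d35 against 11.4 to 31.1, with Col3a1 lower among 6 tested. Dendritic cell markers, led by Clec9a, summed to 9.14 to 11.7 at d35 against 10.4 to 11.6, with none of 4 called. Of 5 measured neutrophil markers 2 were called higher at d35 and none lower, with a median log2 fold change of 1.07. S100a9 was at 5.92, 0.441 and 2.00 scaled CPM in d35 replicates 1, 2 and 3 against 0.0168 to 0.265 in naive libraries (adjusted p = 0.0497), and Ltf at 4.25, 3.33 and 0.562 against 0.0177 to 0.118 (adjusted p = 0.0194). The neutrophil sum, 52.9 to 98.4 at d35 and 68.9 to 86.9 in naive libraries, was mostly Csf3r, at a log2 fold change of -0.46 (adjusted p = 0.0782). The part of these cells in the changes of the 6 genes was not tested.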

How the data were processed

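RNA from sorted alveolar macrophages was sequenced in 8 libraries (3 naive, 2 d15, 3 d35) on an Illumina NextSeq after SMART-Seq v4 amplification, per the labels' protocols. Reads were aligned with STAR 2.5 to mm10 and processed with edgeR, per the submitters' processing notes. For the counting program, annotation and strand, no statement was found: not given in the sources used here. The deposited table holds a scaled signal per gene made by the authors, already filtered, with at least 41 reads per gene over all libraries. Its values equal (reads + 0.5) times a constant per library, and 100% came out whole within 0.001. The authors' deposited table of d15 against naive holds, per the file headers, log2 fold changes, log2 levels, p-values and a score from likelihood ratios. Its sign was read as d15 over naive, since genes higher at d15 in the expression table are positive there. Its d15 counterparts in the expression table are numbered differently from the sample titles, so they were assigned to the group only, as replicates A and B.

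Here limma 3.58.1 (R 4.3.3) with an intensity trend was fitted to log2(value + 1) of 11273 genes that reached 1 in 2 or more libraries. The model held group alone and pooled the spread of the 8 libraries (residual df 5, prior df 5.72). Fold changes on this scale understate those of low genes. Alternatives on recovered reads used edgeR 4.0.16 and DESeq2 1.42.0. Of these steps only the limma fit was run on simulated counts with known changes. Genes named were all 6 members, the 2 list genes with the smallest adjusted p at d35 and the most abundant one, the 3 nearest profiles and the top marker of each cell type. Other list genes were chosen after their values were seen. A few genes that this rule names are not reported here. The members and lists were chosen with earlier results of these data known.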

Additional observations from a re-analysis of the deposited data

Results flagged for a closer look

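Spp1, Msr1, Gpnmb and Trem2 changed differently from naive at the 2 times, by the limma test between d35 and d15 libraries, with log2 differences of 1.60 for Spp1 (adjusted p = 0.00073), 1.67 for Msr1 (0.0116), 0.88 for Gpnmb (0.00216) and 0.81 for Trem2 (0.0273). All d35 libraries were above both d15 libraries for each of the 4. For Gpnmb the sides also differed, since the d15 libraries lay below and the d35 libraries above every naive library. Of all tested genes, 22.3% lay wholly below naive at d15 and 20.7% wholly above at d35. The d15 difference of Gpnmb did not pass limma's test (adjusted p = 0.0944). The Msr1 difference was not called without d15 replicate B (1.34, adjusted p = 0.137).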

How the results depend on the processing

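The d35 over naive calls of Spp1, Msr1, Trem2 and Gpnmb held in all 20 alternatives, at log2 fold changes of 1.43 to 1.72, 1.90 to 2.57, 0.74 to 1.13 and 0.43 to 0.59. Same-numbered naive and d35 deviations correlated at -0.01, -0.05 and 0.15, and differently numbered ones at -0.10 to 0.10. Only replicate 3 correlated best with its own number. With 3 libraries per group these values cannot settle whether replicate numbers pair libraries. With the replicate block 1460 genes were called at d35, 4 of them members; the d15 columns carry other numbers than the titles and were not blocked. With edgeR on recovered reads the d15, d35 and between-time counts of genes were 417, 1760 and 827. With DESeq2, 2 members were called at d15, Gpnmb (-0.37) and Olr1 (-0.35). Leaving out single libraries gave 0 to 1 members at d15 (Olr1 between -0.48 and -0.19) and 2 to 4 between d35 and d15, where Trem2 ranged from 0.57 to 0.96 and Msr1 from 1.32 to 1.99; Trem2, at 0.81, was not called with only the 2 groups fitted or without a trend. Signs near 0 turned for Spp1 at d15 (-0.18 after length correction, an alternative added after seeing the data, and -0.215 to 0.245 over left-out libraries). They also turned over left-out libraries for Cd36 (-0.0962 to 0.0004 at d15, -0.168 to 0.0465 at d35, -0.105 to 0.110 between times) and Olr1 (-0.0479 to 0.242 between times). Genes called at d15, 493, became 1451 with DESeq2, 1179 with 2 groups fitted, 129 without a trend and 11 to 1084 over left-out libraries (231, 64 and 110 without naive replicates 1, 2 and 3, 87 and 11 without d15 replicates A and B, 1084 without d35 replicate 3). At d35, 1824 became 1207 without a trend and 628 to 2288 over left-out libraries (907, 628 and 969 without naive replicates 1, 2 and 3, 1013 and 980 without d35 replicates 1 and 3); between times, 833 became 1368 with DESeq2, 421 with 2 groups fitted and 184 to 1046 over left-out libraries (310 and 184 without d15 replicates A and B). After length correction the uncalled d35 values of Cd14, Cd9, Cebpb and Lpl turned to -0.0031, -0.0306, -0.137 and 0.138. Over left-out libraries the uncalled d35 values of Cd14 (-0.0442 to 0.297), Lpl (-0.131 to 0.0877), Plin2 (-0.0164 to 0.120), Cebpb (-0.096 to 0.236) and Marco (-0.77 to 0.27) also turned. The cause was not tested. With 2 d15 libraries the intervals at d15 reached from -0.12 to 1.29 for Msr1.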

Other observations

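Pparg and Mitf, regulators known to act on some of these genes, were called higher at d15, when none of the 6 was called. Fosl2 was the 1 regulator called lower there, of 19 tested. Among all genes tested 2.37% were called higher and 2% lower at d15. Pparg, the nuclear receptor that maintains alveolar macrophages and drives Cd36, was at 488 and 540 scaled CPM at d15 against 359, 319 and 314 in naive libraries, or 0.64 on the log2 scale (adjusted p = 0.00852 in limma). At d35 it was at 285, 339 and 301, overlapping naive (log2 fold change -0.10, adjusted p = 0.442) and lower than at d15 (-0.74, adjusted p = 0.00163). Mitf, the transcription factor of lysosome and pigment genes that drives Gpnmb in other cells, was at 36.7 and 37.0 at d15 against 22.9, 26.0 and 21.6 in naive libraries (0.63, adjusted p = 0.0148). It was at 25.8, 24.8 and 26.8 at d35, not called over naive (adjusted p = 0.347). The d15 calls of Pparg and Mitf both ended without d15 replicate B. That of Pparg also ended without naive replicate 2, and that of Mitf without d15 replicate A or naive replicate 3. Of the 19 tested regulators, 2 were higher and 3 lower at d35, where 9.86% of all genes tested were called higher and 6.32% lower. These 5 calls became 2 without naive replicate 2 or d35 replicate 1, 3 without naive replicate 3 and 7 at the most over left-out libraries. Fosl2, an AP-1 subunit, was at 55.6 and 57.0 scaled CPM at d15 against 95.5 ± 2.40 in naive libraries. Its log2 fold change at d15 was -0.75 (limma adjusted p = 0.0017). At d35 Fosl2 was at 75.9 ± 4.80 (adjusted p = 0.0148), a call that ended without naive replicate 2 and after length correction. Cebpb, the most abundant regulator, was at 1978 ± 459 against 1844 ± 56.6 (SD, n = 3 each) (adjusted p = 0.741).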
